A study of Mus musculus with 2 samples.

Results

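A core of 350 primed epiblast stem cells was compared with 570 naive embryonic stem cells, out of 17720 mouse cells sequenced together in 1 single-cell RNA library. The primed core was chosen by measured values: among the 1826 cells carrying the primed sample tag, it is the 350 with the highest mean, over Pim2, L1td1, Lin28a, Utf1, Enpp3 and Slc7a3, of the natural log of 1 plus reads per 10000. The naive cells were also chosen by a measured value: of the 801 cells with the naive tag, they are the 570 with a Dppa5a level of at least 1000 CPM (reads per 1000000). The primed cells were Oct4GIP epiblast stem cells, which carry eGFP and puromycin resistance under Oct4 regulatory sequence, grown with FGF2 and Activin A, on fibronectin by the methods or on fibroblast feeders by the labels. The naive cells were Rex1-GFP embryonic stem cells, with a destabilised GFP under the Rex1 promoter, grown in 2iL (LIF with the inhibitors PD0325901 and CHIR99021). Both came from mice of strain 129/Ola per the labels. They are different lines in different media, with 1 tagged population of each, so line, medium and pluripotent state cannot be told apart, and no test between the states was possible.

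The other 3 tagged populations were Oct4GIP cells after 8 and 16 days of AICAR and LIF (d8 and d16), and d16 cells carried for 10 passages in 2iL (d16+10p). The 926 of 1151 d16+10p cells that passed the same Dppa5a gate are given beside the comparison, because they share the primed line and the naive medium. The tags were read out from antibodies to CD9 and CD63, and no cell barcode number was shared between tags. Of the primed and naive cells, 500 each were loaded per the study's description, fewer than the 1826 and 801 cells that carry the tags. The tables hold reads with no collapsing to molecules, so the same molecule may be counted more than once. Each interval of a level or ratio below covers only counting error of reads taken as independent, and may be too narrow. It leaves out the spread between cells, and no interval covers the variation between cultures.

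Naive and primed cells are the earlier and later forms of pluripotency, modelled on the epiblast before and after implantation. Naive cells depend on LIF-STAT3 signalling and on a set of transcription factors that includes Esrrb, Klf4 and Tfcp2l1, with ERK and GSK3 signalling inhibited in 2i medium. Primed cells depend on FGF-ERK and Nodal/activin signalling, begin to express genes of the germ layers, and have high DNA methylation. Both express Pou5f1 (Oct4) and Sox2.

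The selecting genes are given as a description. Pim2, a serine/threonine kinase, was at 337 CPM in the primed core and 8.75 CPM in naive cells. Lin28a, which blocks let-7 maturation, was at 154 and 12.5 CPM, Utf1 at 128 and 19.6, Enpp3 at 89.1 and 4.16, Slc7a3 at 107 and 32.0, and L1td1 at 434 and 185. Dppa5a was at 119 CPM in the primed core and 2801 in naive cells, beside 140 CPM in the cells with macrophage genes described below. The primed score fell without a gap across its limit, from 0.543 in the last cell inside to 0.542 in the first outside, with a median of 0.896 inside. The lowest Dppa5a level inside the naive gate was 1042 CPM and the highest outside 995 CPM. Of the 350 primed cells, 8 had at least 1000 CPM of Dppa5a and 83 had no Dppa5a read, while 12 of the naive cells reached the last core cell's primed score. No doublet caller was run here. The paper's methods describe removing the cells with the least distinct tag reads as doublets. The paper clustered fewer cells after a quality check, which was not applied here.

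Depth was alike in both groups, with medians of 23823 reads per primed cell and 23536 per naive cell and sums of 8819680 and 14171707 reads. Free RNA of the shared library was gauged in 655 cells, mostly of d8, with macrophage genes (median 18395 reads), a cell type that should lack pluripotency genes. Their level is called the background. Pou5f1 was at 35.9 CPM in them against 439 CPM in the primed core, which had the label's Oct4. Of the primed markers, Otx2 was low in the core, at 19.5 CPM. Summed fibroblast markers, the genes of a feeder layer, were at 548 CPM in the primed core, 559 in naive cells and 1096 in the background cells. Summed macrophage markers were at 430 CPM in the primed core, 838 in naive cells and 37923 in the background cells, with Lyz2 at 316, 635 and 31233 CPM. The 6 endothelial and 7 endoderm markers summed to 5.44 and 34.5 CPM in the primed core and to 8.47 and 30.3 CPM in naive cells. The part of these cells' RNA in the differences below was not tested.

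Of 7393 genes that reached 20 CPM on at least 1 side, 311 (4.21%) were at least 2-fold higher in the primed core and 474 (6.41%) were at least 2-fold higher in naive cells, with intervals that left out no change. The ratios are of the summed CPM with 1 CPM added to each side, on the log2 scale, and positive where primed was higher. The added 1 CPM makes the ratio of a low gene smaller than its plain fold, which is also given. The median ratio of all tested genes was 0.03, and 89.4% of them lay within 2-fold. The naive side held more of the large differences: 93 genes were at least 8-fold higher in naive cells and 17 in the primed core. For 68 of those 93 genes the primed level was at or below the background, as was the naive level for 11 of the 17. Such a fold was measured against a level no higher than that of the background cells. Their level of a gene may hold their own transcripts as well as free RNA.

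**Figure D1:**
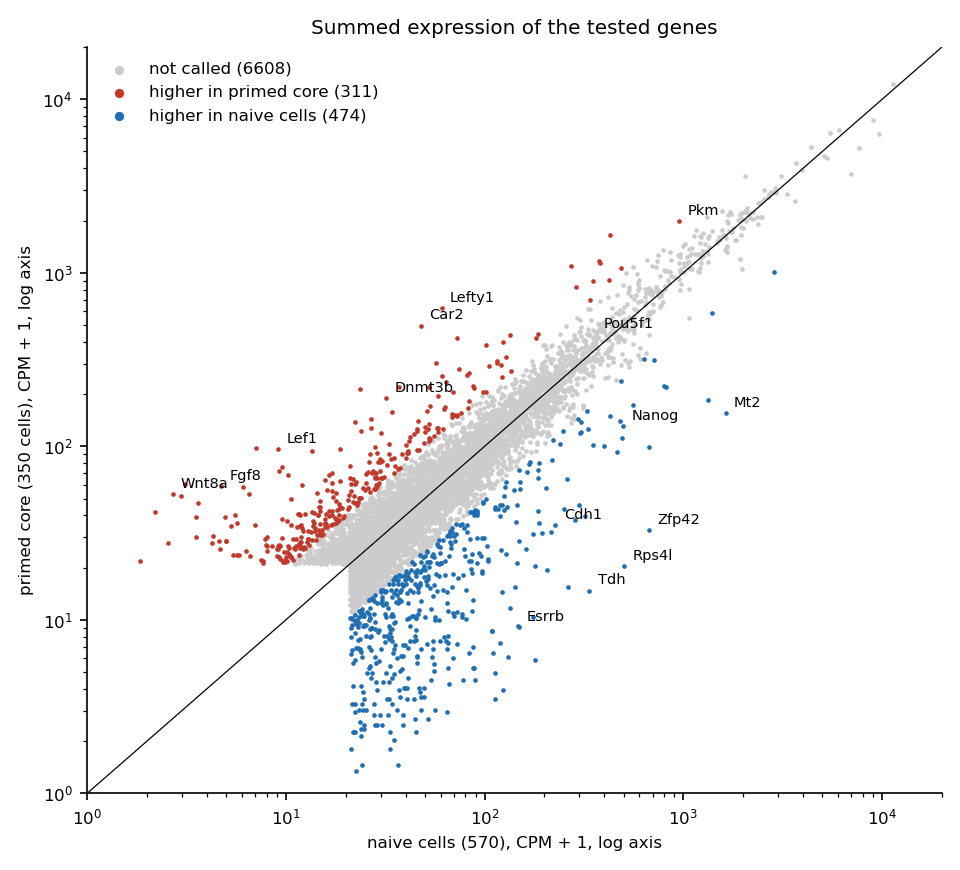
Summed CPM plus 1 of each tested gene in the naive cells (x, log axis) and the primed core (y, log axis), with 311 genes higher in the primed core in red, 474 higher in naive cells in blue, and the line of equal levels. Pou5f1 lies near the line, while Zfp42, Tdh and Rps4l lie far to the naive side and Lefty1, Car2 and Wnt8a to the primed side.

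Of the 9 tested members of the pluripotency core list, 4 were higher in naive cells: Nanog, Esrrb, Dppa2 and Dppa4. None was higher in the primed core, and the list's median log2 ratio was -0.38. The shares over all tested genes were 6.41% in naive cells and 4.21% in the primed core. Pou5f1 was at 439 CPM in the primed core and 361 CPM in naive cells (log2 ratio 0.28), and Sox2 at 266 and 346 CPM (-0.38). With each cell thinned to 5000 reads, 80.5% of 343 primed cells (exact 95% interval 75.9 to 84.5) and 78.6% of 560 naive cells (74.9 to 81.9) had a Pou5f1 read, against 13.3% of background cells. These shares overlap. Nanog, which stabilises naive pluripotency, was at 130 CPM in the primed core and 496 CPM in naive cells, 3.81-fold higher in the latter. A Nanog read was found in 46.1% of primed cells (40.7 to 51.5) and 85.7% of naive cells (82.5 to 88.5), against 13.3% of background cells, so Nanog RNA in the primed core stood above the background. Dppa2 and Dppa4, neighbouring genes for a pair of chromatin proteins, were at 7.03 and 2.49 CPM in the primed core and 64.6 and 32.0 CPM in naive cells, with 4.97 and 1.56 in the background.

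Of the 13 tested naive transcription factors, 12 were higher in naive cells and none in the primed core, with a median log2 ratio of -3.33 beside 0.03 for all genes. Zfp42 (Rex1), a zinc-finger protein and the standard naive marker, was at 667 CPM in naive cells and 31.7 CPM in the primed core, a 21.02-fold difference, and at 33.6 CPM in the background cells. A Zfp42 read was found in 93.8% of thinned naive cells (91.4 to 95.6), 11.1% of primed cells (7.96 to 14.9) and 10.5% of background cells. The primed interval held the background share. Esrrb, an orphan nuclear receptor, was at 147 CPM in naive cells against 8.05 CPM in the primed core and 8.45 in the background. Tfcp2l1, a target of STAT3, was at 107, 7.60 and 8.30 CPM in the same order, and Nr5a2, another nuclear receptor, at 52.4, 3.51 and 4.003. Nr0b1, a nuclear receptor corepressor on the X chromosome, had 11 reads in the primed core against 625 in naive cells, 1.25 against 44.1 CPM (35.4-fold). The folds of Nanog, of the Krüppel-like factors and of Sall1 were smaller: in naive cells and the primed core, Klf2 was at 285 and 36.7 CPM (7.76-fold), Klf5 at 142 and 35.5, Sall1 at 48.5 and 16.7 (2.91-fold), and Klf4 at 350 and 100 CPM, with 175 CPM of Klf4 in the background cells. Gbx2 was at 21.3 CPM in the primed core and 15.9 in naive cells (log2 ratio 0.40), and Prdm14 and Mycl did not reach 20 CPM in either group.

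The promoter of Zfp42 is shown because Zfp42 had the largest log2 ratio of the listed naive factors with 1 CPM added (-4.35, beside -4.33 for Nr0b1) and its promoter marks the naive line, and that of Nr0b1 beside it as another naive-side gene. Both run from 250 bases before to 50 bases after the annotated start in RefSeq on GRCm38.p6, on the gene's strand. Zfp42 lies on the minus strand at chr8:43306960-43307259 and Nr0b1 on the plus strand at chrX:86191525-86191824. The capitals in Zfp42 mark, from the 5′ end, a match to the reverse complement (ATTTGCAT) of the octamer bound by Pou5f1 and its relatives and a KLF box (CCACACCC), starting 186 and 75 bases before the start. Those in Nr0b1 mark TATAAA, 32 bases before it.
Zfp42: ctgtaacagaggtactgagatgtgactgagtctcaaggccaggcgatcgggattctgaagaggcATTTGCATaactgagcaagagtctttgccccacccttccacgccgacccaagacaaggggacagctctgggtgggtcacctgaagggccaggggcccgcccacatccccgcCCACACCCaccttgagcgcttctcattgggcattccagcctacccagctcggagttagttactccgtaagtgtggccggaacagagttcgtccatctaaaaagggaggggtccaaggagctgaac
Nr0b1: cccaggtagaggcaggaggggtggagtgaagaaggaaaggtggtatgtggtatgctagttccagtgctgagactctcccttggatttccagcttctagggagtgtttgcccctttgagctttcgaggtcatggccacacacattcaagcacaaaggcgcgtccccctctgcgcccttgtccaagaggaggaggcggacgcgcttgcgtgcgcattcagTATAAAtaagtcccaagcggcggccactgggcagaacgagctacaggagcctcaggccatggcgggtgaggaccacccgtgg
On either strand, the octamer ATGCAAAT was in 1.77% of all 27025 promoters, 1.25% of the 5595 of tested genes and 1.44% of the 347 of naive-side genes. In the same order, CCACACCC was in 3.60%, 3.56% and 4.32%, and TATAAA in 14.2%, 7.01% and 8.93%. The nuclear receptor half-site AAGGTCA was in 4.61% of naive-side, 2.18% of 229 primed-side, 2.75% of 5595 tested and 4.65% of all promoters.

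Of 16 tested naive markers and germline genes, 15 were higher in naive cells (median log2 ratio -3.22), against 6.41% of all tested genes. Tdh, threonine dehydrogenase, which feeds threonine into one-carbon metabolism in mouse embryonic stem cells, was at 335 CPM in naive cells and 13.7 CPM in the primed core, 24.4-fold lower, with 11.6 CPM in the background. The cell-surface protein Pecam1 (CD31) was at 44.7 and 5.10 CPM. Tex19.1, a retrotransposon regulator of the germline, was at 76.8 and 3.51 CPM, Morc1, which represses transposons in the male germline, at 88.6 and 3.51, and Dazl, a germ-cell RNA-binding protein, at 174 and 30.3 CPM with 33.7 in the background. Dppa3 (Stella) was low even in naive cells, at 32.1 CPM and in 10.7% of the thinned cells (8.28 to 13.6). Zscan10 was alike, at 25.8 and 24.6 CPM. Levels in d16+10p cells were on the naive side for most of these, with Tdh at 319 CPM and Morc1 at 71.8, and Dppa3 at 147 CPM.

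The 15 largest ratios toward naive cells mixed these genes with less familiar ones. Fam25c headed them, at 112 CPM in naive cells against 2.49 CPM (log2 ratio -5.01, 44.8-fold), followed by Rpl10l at 123 and 2.95 CPM, Crxos, an eye-and-embryo homeobox gene, at 178 and 4.88, and Pramef12, a germline PRAME family member, with 505 reads against 4. The aquaporin Aqp3 was at 130 and 5.10 CPM, Cyp1a1, a target of the aryl hydrocarbon receptor, at 112 and 3.97, and Rpp25, a subunit of RNase P, at 55.3 and 2.04. Rps4l at 503 and 19.4 CPM, Gm48244 and 2210409E12Rik are annotated as pseudogenes, and with Rpl10l and Pramef12 they have close copies, so their counts are uncertain. Olfr506, an olfactory receptor locus, was at 63.8 CPM in naive cells and 1.93 in the primed core, and was the only gene of the 15 more than 4-fold below the naive level in d16+10p cells, at 8.08 CPM. Tdh, Zfp42, Nr0b1 and Morc1 complete the 15.

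Of 14 tested primed transcription factors, 7 were higher in the primed core and none in naive cells. The shares over all tested genes were 4.21% and 6.41%. The list's median log2 ratio was 1.07. Pou3f1 (Oct6), a POU factor of the postimplantation epiblast, was at 70.8 CPM in the primed core and 8.26 CPM in naive cells (log2 ratio 2.95), with 9.49 in the background. T (Brachyury), a mesoderm factor, was at 95.1 and 17.6 CPM, a ratio of 2.37, with 15.4 in the background, and Eomes, a factor of the primitive streak, at 25.7 and 8.11 CPM. Sox11 was at 256 and 80.7, Etv1, a target of FGF signalling, at 54.7 and 15.03, and Sall2 at 29.1 and 7.06 CPM. Zic2 and Zic5 were at 29.1 and 68.9 CPM against 19.0 and 44.1 in naive cells, under 2-fold. Otx2 and Sox3 did not reach 20 CPM: Otx2 was in 8.45% of thinned primed cells (5.74 to 11.9) and 2.86% of naive cells (1.64 to 4.60), and Sox3 in 5.83% (3.60 to 8.86) and 0.536% (0.111 to 1.56). Few reads per cell stood behind these factors, with Pou3f1 seen in 23.9% and T in 27.7% of thinned primed cells.

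**Figure D2:**
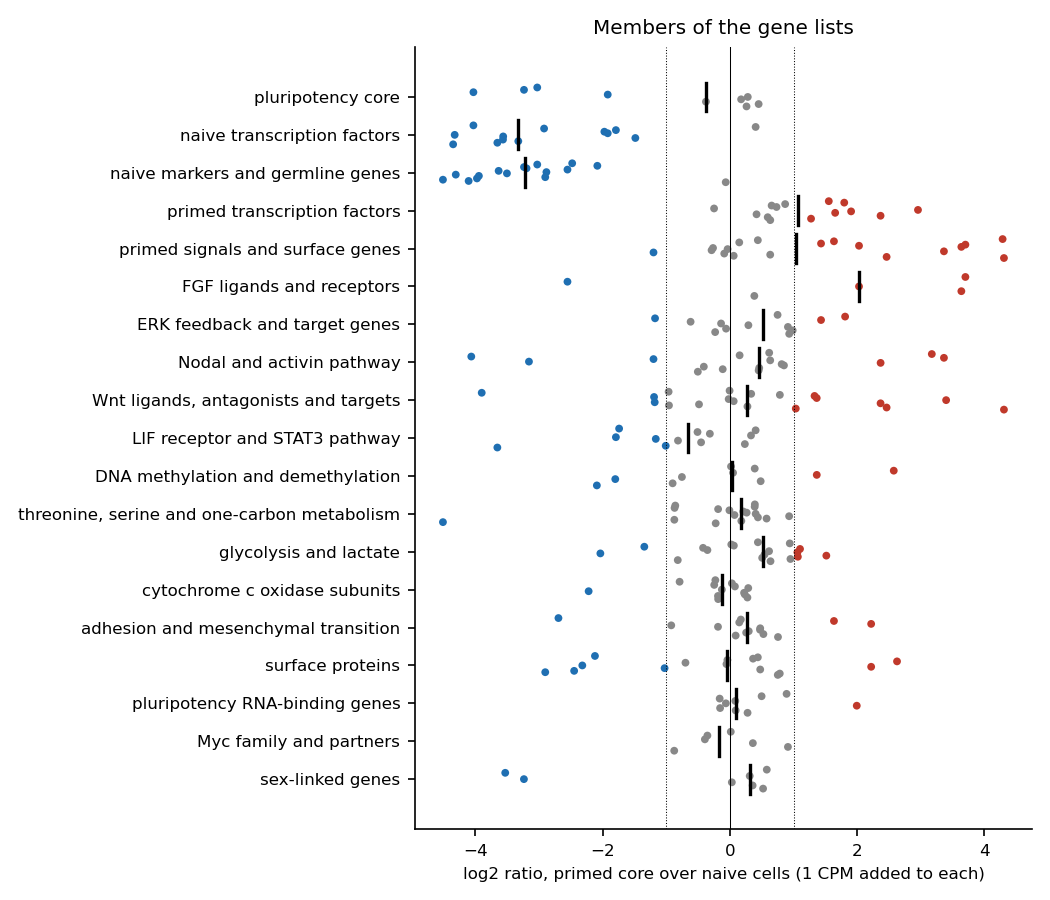
Log2 ratios of the primed core over naive cells (x, 1 CPM added) for the tested members of 19 gene lists (y), with black bars at list medians, dotted lines at 2-fold, red for members higher in the primed core, blue for naive cells and grey for neither. Naive transcription factors and naive markers lie almost wholly to the left, and primed factors, primed signals and FGF ligands reach to the right.

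Different FGF ligands were high in either state. Fgf4, the autocrine ligand of naive cells, was at 44.2 CPM in naive cells and 6.69 CPM in the primed core, 6.60-fold lower. Fgf5, the classical primed marker, was at 62.9 CPM in the primed core and 14.7 in naive cells (4.29-fold), where the background was 15.1. Fgf8 was at 57.9 and 3.74 CPM (15.5-fold) and Fgf15 at 45.9 and 2.61 CPM (17.6-fold), both with naive levels below the background. The receptor Fgfr1 was at 74.7 and 57.1 CPM. Of 12 tested ERK feedback and target genes, 2 were higher in the primed core, 1 in naive cells and 9 in neither. Over all tested genes, 4.21% were higher in the primed core and 6.41% in naive cells. The 2 primed-side genes were Dusp6, an ERK phosphatase, at 98.0 against 27.2 CPM and the ephrin receptor Epha2 at 81.4 against 29.6. Spry2, at 111 and 57.6 CPM, and Spred1, at 76.5 and 38.2, both feedback inhibitors, lay just under the limit for a 2-fold difference. The immediate early gene Egr1 ran the other way, at 312 CPM in the primed core and 706 in naive cells. Etv5 was at 84.9 and 131 CPM. The part of the medium in these levels was not tested.

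Genes of the Nodal/activin pathway lay on both sides. Lefty1, a secreted Nodal antagonist and target, was at 624 CPM in the primed core and 59.8 in naive cells, 10.4-fold higher, with 62.2 in the background. Lefty2, its neighbour with a very similar sequence and function, was at 23.0 CPM in the primed core and 54.3 in naive cells, 2.36-fold lower, with 5.26 in the background, and reads could be split between the pair. With a core of 450 cells the log2 ratio of Lefty2 was -0.73, short of 2-fold. The activin inhibitor Fst was at 212 and 22.7 CPM (9.37-fold). On the naive side, the ligand Gdf3 was at 87.9 against 4.31 CPM and the Nodal-processing protease Pcsk6 at 40.4 against 3.63. Nodal itself was at 64.7 CPM in the primed core and 41.4 in naive cells (log2 ratio 0.63), and its co-receptor Tdgf1 at 505 and 369 CPM. Of 16 tested members, 3 were higher in the primed core and 3 in naive cells, against 4.21% and 6.41% of all tested genes.

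Of 19 tested Wnt genes, 7 were higher in the primed core and 3 in naive cells, against 4.21% and 6.41% of all tested genes. The ligand Wnt8a had the largest ratio of all genes toward primed, at 52.3 CPM against 1.69 CPM (log2 ratio 4.31, 30.9-fold), with 1.63 in the background, and was in 18.7% of thinned primed cells (14.7 to 23.2) and 1.07% of naive cells (0.394 to 2.32). Wnt3, the ligand that starts the primitive streak, was at 24.7 and 3.67 CPM, and Lef1, a nuclear partner of β-catenin, at 95.01 and 8.11 CPM (11.7-fold). The receptors Fzd2, at 31.3 and 11.9 CPM, and Fzd7, at 41.5 and 15.5, and the ligand Wnt5a, at 36.7 and 17.4, were also higher in the primed core, with Wnt5a at 36.4 in the background. The naive side held the Wnt targets Cdx1, at 32.6 against 1.25 CPM, and Sp5, at 25.5 against 10.7, and the receptor Fzd5, at 35.8 against 15.1. Cdx1 was at 10.5 CPM in d16+10p cells.

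Of 12 tested members of the LIF-STAT3 pathway, 5 were higher in naive cells and none in the primed core. The shares over all tested genes were 6.41% and 4.21%. The receptor Lifr was at 22.4 CPM in naive cells and 9.41 in the primed core, Stat3 at 71.1 and 34.8, and Bcl3 at 20.2 and 5.33, in addition to Klf4 and Tfcp2l1. Among DNA methylation genes, the de novo methyltransferase Dnmt3b was at 189 CPM in the primed core and 30.8 in naive cells (6.11-fold), and in 56.9% of thinned primed cells (51.4 to 62.2) against 12.3% of naive cells (9.71 to 15.3). The glycosylase Tdg was at 106 and 40.7 CPM. Tet2, which oxidises methylcytosine, was at 62.2 CPM in naive cells and 17.1 in the primed core, and Zfp57, which protects imprints, at 76.8 and 17.2 CPM. The remaining 6 of 10 tested members lay within 2-fold, against 89.4% of all tested genes. Dnmt3b was at 67.6 CPM in d16+10p cells, between the other groups.

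**Figure D3:**
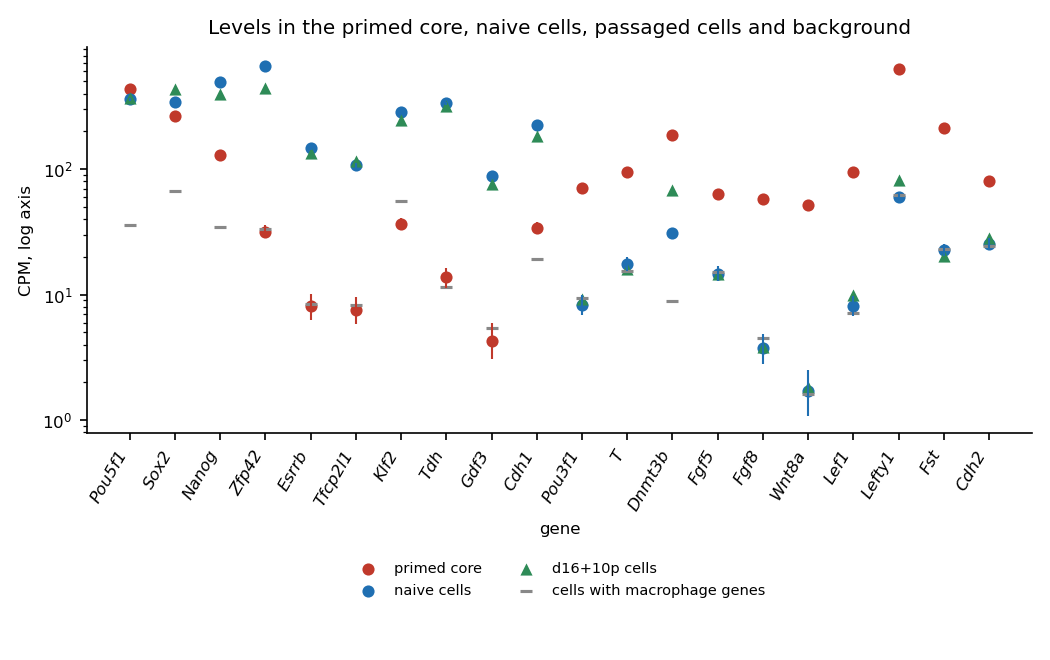
Summed CPM (y, log axis) of 20 genes (x) in the primed core, naive cells, d16+10p cells and cells with macrophage genes, with 95% Poisson intervals of counting error as vertical lines for the primed core and naive cells. The d16+10p cells (triangles) lie near the naive cells for nearly every gene, and the primed level of Zfp42, Esrrb, Tfcp2l1 and Tdh sits at the background (grey dashes).

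Glycolytic genes lay on both sides, with a median toward the primed core. The cytochrome c oxidase subunits apart from Cox7a1 were within 2-fold, as were 89.4% of all tested genes. Pkm, pyruvate kinase, was at 1989 CPM in the primed core and 949 in naive cells, Ldha, lactate dehydrogenase, at 907 and 422, Pgk1 at 825 and 288 and Pfkl at 60.7 and 28.6, while Hk1 was at 8.05 and 22.0 and Pfkp at 22.4 and 95.3 CPM; so 4 of 18 tested members were higher in the primed core and 2 in naive cells. Of all tested genes, 4.21% were higher in the primed core and 6.41% in naive cells. The median log2 ratio of the glycolytic list was 0.52, and that of Pkm, 1.07 here, was 0.97 with a core of 450 cells. Of 13 tested cytochrome c oxidase subunits, Cox7a1 differed, at 52.9 CPM in naive cells and 10.5 in the primed core, and the list's median was -0.13. Apart from Tdh, the 16 other tested genes of threonine, serine and one-carbon metabolism were within 2-fold, again like most tested genes.

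The promoter of Ldha is shown for its E-boxes, the CACGTG letters that Myc and related factors bind, in capitals at 145 and 48 bases before the annotated start (RefSeq, GRCm38.p6, chr7:46845554-46845853, plus strand).
Ldha: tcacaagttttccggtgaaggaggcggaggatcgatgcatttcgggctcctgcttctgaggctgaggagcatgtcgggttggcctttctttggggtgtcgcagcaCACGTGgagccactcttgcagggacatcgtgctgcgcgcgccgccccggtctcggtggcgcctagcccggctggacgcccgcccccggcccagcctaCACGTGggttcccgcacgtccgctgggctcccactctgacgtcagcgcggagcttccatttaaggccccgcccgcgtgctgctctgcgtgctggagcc
CACGTG was in 12.7% of the 229 matched primed-side promoters, 9.51% of the 347 naive-side promoters and 11.3% of the 5595 tested ones. Of the Myc family and its partners, none of the 6 tested members differed by 2-fold, and 89.4% of all tested genes lay within 2-fold. Myc itself was at 37.8 CPM in the primed core and 19.6 in naive cells.

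Of 14 tested adhesion genes, Cdh1 was higher in naive cells, Cdh2 and Epcam in the primed core, and 11 in neither. Over all tested genes, 6.41% were higher in naive cells and 4.21% in the primed core. Cdh1 (E-cadherin) was at 226 CPM in naive cells and 34.01 in the primed core (6.64-fold lower), with 19.3 in the background, and was found in 62.9% of thinned naive cells (58.7 to 66.9) and 14.9% of primed cells (11.3 to 19.08). Cdh2 (N-cadherin) was at 80.7 CPM in the primed core and 25.3 in naive cells, where the background was 24.6. Epcam, an epithelial adhesion protein, was nonetheless at 157 CPM in the primed core and 33.0 in naive cells. Among surface proteins, Cd59a was higher in the primed core, at 137 against 21.4 CPM, and Kit, at 80.0 against 13.8, Alpl (alkaline phosphatase), at 84.8 against 18.7, and Icam1, at 33.9 against 16.1, were higher in naive cells. Cd9, a target of the antibodies that carried the tags, was at 464 CPM in naive cells and 92.0 in the primed core, and at 668 in the background cells. Of the RNA-binding genes, Lin28b was at 24.0 CPM in the primed core and 5.29 in naive cells. The 8 others tested were within 2-fold, as were 89.4% of all tested genes.

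The 15 largest ratios toward the primed core were of secreted factors, enzymes, a channel and other proteins. Besides Wnt8a, Fgf15, Fgf8, Lefty1, Fst and Lef1 they held the vascular peptide Apln, at 40.7 CPM against 1.20 (33.9-fold), the potassium channel Kcnj3 at 50.8 and 1.98, the carbonic anhydrases Car14 at 59.8 and 2.12 and Car2 at 495 and 46.7, Tdrkh, a piRNA pathway protein, at 97.2 and 6.07, Vrtn at 20.98 and 0.847, the membrane protease Mmp25 at 38.2 and 2.54, and Fndc3c1 at 26.9 and 1.55. Mup6 completes them, at 57.4 and 5.08 CPM, but belongs to a family of near-identical genes, so its count is uncertain. In d16+10p cells each of these 15 genes was near its naive level, with Lefty1 at 81.7 CPM and Car2 at 57.7 the highest.

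Levels within the core changed along the selection score. In 7 bins of 50 cells, Pou5f1 went from 522 CPM (484 to 562) at the highest scores to 288 CPM (256 to 323) at the lowest, and Dnmt3b from 270 to 118. Lefty1 went the other way, from 348 CPM (317 to 381) to 979 (919 to 1042), as did T, from 62.7 to 192 CPM, and Cdh2, from 64.2 to 131. None of these genes was in the score, but cells were ranked on values from the same libraries, so this is a description of the chosen cells. The median depth was 26949 reads per cell in the first bin and 21102 in the last.

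**Figure D4:**
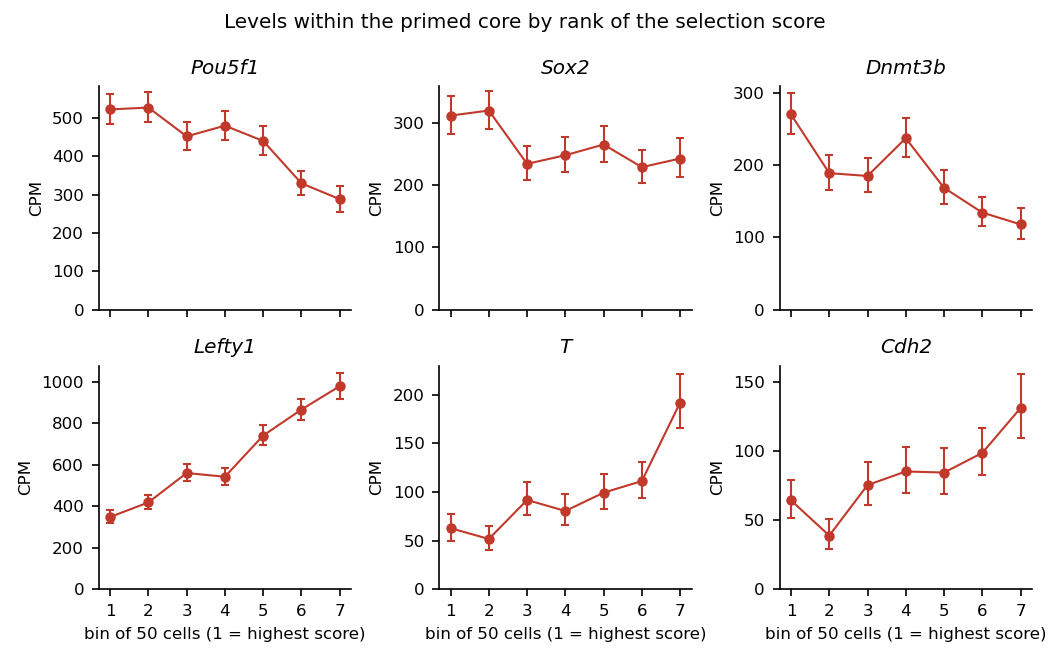
CPM (y) of 6 genes in 7 bins of 50 primed cells ordered by the selection score (x, bin 1 highest), with 95% Poisson intervals of counting error. Pou5f1, Sox2 and Dnmt3b are highest at high scores, and Lefty1, T and Cdh2 are highest in the last bin.

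A stretch of neighbouring genes on chromosome 3 was higher in the primed core. It was picked after the values were seen, as the 42 tested genes from Them4 to Bola1 (GENCODE M21, GRCm38, chr3:94310089-96219709). Of these, 39 were higher in the primed core, 25 by 2-fold or more (59.5% against 4.21% of all genes), and 2 were 2-fold higher in naive cells, with a median fold of 2.17. In the 5 Mb on either side the median folds were 1.08 over 24 genes and 1.21 over 17. The stretch holds the top-ranked genes Car14 and Tdrkh, and housekeeping genes such as the proteasome subunits Psmb4, at 1655 and 427 CPM, and Psmd4, at 1167 and 374, the histone chaperone Anp32e, at 1089 and 272, and the sorting nexin Snx27, at 436 and 133. Mcl1, an inhibitor of apoptosis, was at 996 and 515 CPM. The 3 genes with a higher level in naive cells were Hormad1, a meiotic gene, at 4.08 and 36.6 CPM, the macrophage protease Ctss, at 40.3 and 91.0, and Mindy1, a deubiquitinase, at 32.0 and 49.2, under 2-fold.

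In nearly every primed cell the summed level of the stretch was above that of most naive cells, though it was picked on these same cells. The sum is over 37 of the genes, without Car14, Tdrkh, Hormad1, Ctss and Ctsk. Those left out include both genes that were 2-fold higher in naive cells. Abundant genes such as Psmb4, Psmd4, Anp32e and Mcl1 weigh most in the sum. The median was 9626 CPM per primed cell and 3304 CPM per naive cell, 2.91-fold apart. Of the 350 primed cells, 334 (95.4%) lay above 6061 CPM, the 95th percentile of naive cells. The d16+10p cells fell into 2 sets: 298 of 926 (32.2%) lay above that level, although their median was 3748 CPM, and 511 of 1278 d16 cells in the Dppa5a gate (40.0%) did. The number of copies of these genes was not measured, and its part was not tested.

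**Figure D5:**
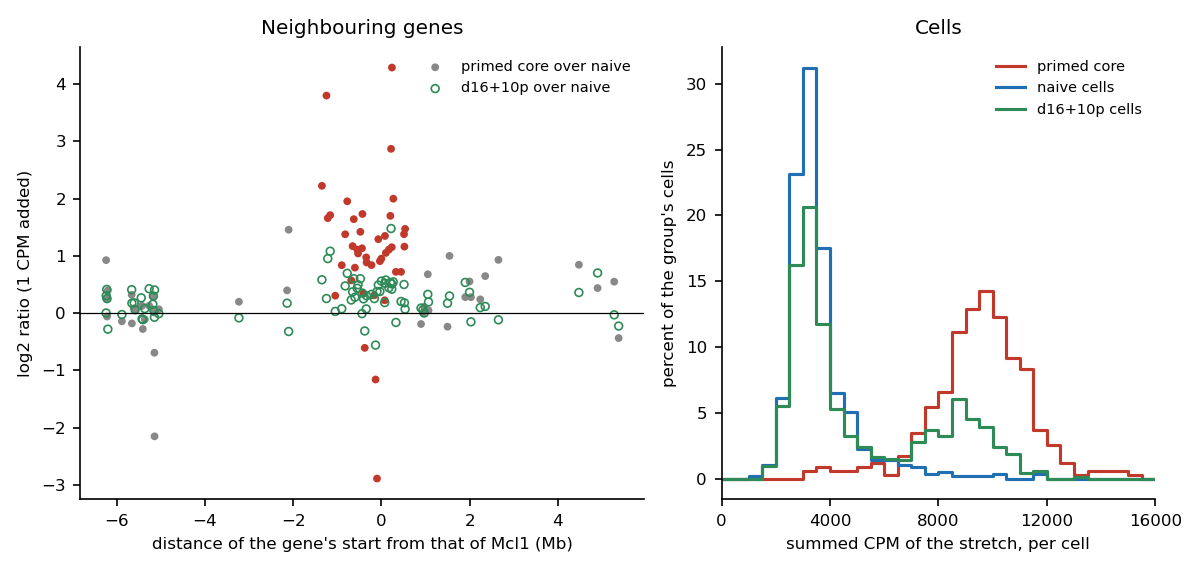
Left, log2 ratios over naive cells (y, 1 CPM added) of genes by the distance of their start from that of Mcl1 (x, Mb), with the chromosome 3 stretch in red for the primed core, other genes in grey, and open green circles for d16+10p cells. Right, percent of each group's cells (y) by the summed CPM over 37 genes of the stretch (x). Primed cells peak near 9626 CPM and naive cells near 3304 CPM. The d16+10p cells form a peak near the naive one and another in the bin from 8500 CPM, somewhat below the primed one.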

How the data were processed

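Cells of 5 tagged populations were captured together on the BD Rhapsody system, which yields polyadenylated whole-transcriptome cDNA, and were assigned to a population by oligo-tagged antibodies. The count table deposited by the authors holds raw reads of 33963 genes in 17720 cells. Reads were trimmed with cutadapt 2.10 and mapped with Bowtie2 2.3.4.1 per the submitters' processing notes, which also name Seurat 2.3.4 and the build mm10. The reads of the tag library were not analysed here.

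The primed core and naive cells were drawn from the table by the rules at the head of the report, and reads were summed over each. A gene was compared where it reached 20 CPM on at least 1 side and 50 reads over both, without the 7 selecting genes and 37 mitochondrial genes. A gene was counted as higher where the log2 ratio, after adding 1 CPM, was at least 1 and its exact 95% conditional binomial interval (without the added CPM) left out 0. Shares of cells were taken after thinning each cell to 5000 reads, leaving out 7 primed and 10 naive cells, with exact (Clopper-Pearson) intervals; levels have exact Poisson intervals. Cells are not replicates, so no p-value is given. Background cells had at least 1000 CPM over Tyrobp, Fcer1g, Csf1r, C1qb and Ptprc with reads of at least 3 of these 5. The scripts were tested on simulated data. Genes were named as the 15 largest ratios in each direction and the members of 19 gene lists and 7 marker lists; others, in the chromosome 3 stretch and under the other observations, were chosen after their values were seen. The members and the lists were chosen with earlier results of these data known. Alternatives were another scaling (TMM, edgeR 4.0.16), filters, pseudocount, gate limits and depth. Python 3.11.15 with numpy 2.4.6 and scipy 1.17.1 was used. Gene positions came from GENCODE M21, matched by symbol for 7269 of 7393 genes, and promoters from RefSeq, matched for 5595. Some members of the lists are counted but not reported here by name.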

Additional observations from a re-analysis of the deposited data

Results flagged for a closer look

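Outside the primed core, 54 of the other 1476 primed-tagged cells (3.66%, exact 95% interval 2.76 to 4.75) had at least 1000 CPM of Dppa5a, the naive gate. These cells enter neither side of the comparison, and are given here because their share was above the 0.748% (0.586 to 0.941) of d8 cells, although its interval overlaps that of the cells with macrophage genes, 2.29% (1.29 to 3.75). The 54 cells had a median of 11424.5 reads, against 18395 in the cells with macrophage genes. Summed over the 54 cells, Zfp42 was at 328 CPM, Esrrb at 120, Nanog at 415 and Dazl at 934 CPM. Lyz2 was at 759 and Col1a2 at 236 CPM, beside 791 and 666 CPM in all 1476. Pim2 was at 17.7 CPM, beside 21.3 CPM in all 1476, and is a gene of the score that left these cells out. A low Pim2 level was thus set by the choice of cells. The Y-linked gene Ddx3y was at 8.17 CPM in the 54 cells, against 68.3 CPM in naive cells and 4.99 CPM in the primed core. Dazl was at 174 CPM in naive cells and 900 CPM in the gated d16 cells, where Ddx3y was at 6.02 CPM. Which population the 54 cells came from was not tested.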

How the results depend on the processing

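Across 11 alternatives and 1 added after seeing the data, 41 of 46 counts stayed within 1.5 times the reported one. None of 40 named genes whose values were recomputed under the 11 changed direction where it had been called. These genes include the 15 largest ratios in each direction, which were unlikely to reverse, so this is a weak check. The count of genes higher in the primed core, 311 as reported, was 174 with a pseudocount of 10 CPM, 160 with a filter at 50 CPM and 628 with no filter on CPM. That of genes higher in naive cells, 474 as reported, was 215 with the 50 CPM filter and 1189 with none, so both totals are set by how low genes are treated. Naive transcription factors higher in naive cells ranged from 9 to 13 and primed factors higher in the primed core from 5 to 9. Leaving out the 8 core cells at the Dppa5a gate gave Zfp42 a log2 ratio of -4.66, beside -4.35 as reported. The median of the naive transcription factors was then -3.63, beside -3.33. Of the 15 top genes, 9 on the primed side and 8 on the naive side were still among the top 15 with a pseudocount of 10 CPM, and 12 and 7 with cells thinned to 5000 reads. Lefty2 depended on the limits, with log2 ratios from -1.82 to -0.73, the weakest for a core of 450 cells; at a pseudocount of 10 CPM it was -0.96. Pkm was at 0.97 for 450 cells. Of 440 values of 40 genes, 366 moved by no more than the counting error of reads. These include the values under the changed CPM filters, which leave a gene's ratio as it is and so could not move. Chosen after seeing the data, leaving out the chromosome 3 stretch gave 286 genes higher in the primed core and 472 higher in naive cells. No paired analysis was possible because the populations carry no replicate numbers.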

Other observations

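The genes, window and chromosomes named here were chosen after their values were seen, other than Ddx3y, Eif2s3y and Spic, which are members of the gene lists. A cluster of zinc-finger genes on chromosome 4 was higher in naive cells than in the primed core and higher again in d16+10p cells. In the window from 140 to 150 Mb, 18 of 51 tested genes were at least 2-fold higher in naive cells (35.3% against 6.41% of all tested genes), the highest share among 158 windows of 10 Mb with at least 20 tested genes. Zfp600 was at 19.5 CPM in the primed core, 178 in naive cells and 419 in d16+10p cells. Zfp990 was at 24.5, 160 and 307 CPM in the same order, Zfp985 at 22.9, 85.8 and 203, Zfp980 at 9.07, 79.6 and 172, and Rex2 at 6.58, 58.7 and 135 CPM. These genes are close copies of each other, so reads may be split among them.

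On the X chromosome, 29 of 263 tested genes (11.0% against 4.21% of all) were at least 2-fold higher in the primed core and 21 (7.98% against 6.41%) in naive cells. Among the latter, Rhox5, a homeobox gene, was at 13.4 CPM in the primed core, 121 in naive cells and 250 in d16+10p cells. Xlr3a, Xlr3b and Xlr4a, members of a lymphoid-regulated gene family, were at 2.49, 2.27 and 1.25 CPM in the primed core against 31.4, 33.3 and 20.8 CPM in naive cells, and are close copies too. Of 3 imprinted genes on the primed side, which stand for no list, Snrpn was at 252 CPM against 60.2 in naive cells and 73.7 in d16+10p cells, Grb10 at 220, 51.2 and 58.7, and Phlda2 at 58.8, 11.0 and 9.28 CPM. The metallothioneins Mt1 and Mt2, which bind zinc and copper, were at 185 and 154 CPM in the primed core and at 1325 and 1632 CPM in naive cells, and Mt1 was at 2353 CPM in the cells with macrophage genes. Adk, adenosine kinase, the enzyme that phosphorylates AICAR, was at 218 CPM in the primed core, 36.1 in naive cells and 35.0 in d16+10p cells.

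Some genes were high in the Rex1-GFP line and low in both groups of the Oct4GIP line. The Y-linked Ddx3y was at 68.3 CPM in naive cells, 4.99 in the primed core and 5.24 in d16+10p cells, and Eif2s3y at 36.3, 2.95 and 2.92 CPM. The study's list of cell lines gives both as XX. Ly6a, a surface antigen, was at 146, 8.28 and 11.9 CPM in the same order, Bhmt, a methyltransferase of methionine metabolism, at 43.2, 2.49 and 2.15, and the transcription factor Spic at 35.1, 2.04 and 3.74. The 3 autosomes with the lowest medians differed from naive cells by small amounts in both groups: the median log2 ratio over naive cells was -0.22 in the primed core and -0.26 in d16+10p cells for the 364 genes of chromosome 6, -0.14 and -0.19 for 440 genes of chromosome 8, and -0.22 and -0.15 for 607 genes of chromosome 11, against 0.03 for all genes in the primed core. Both comparisons share the naive cells.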
